A study of Mus musculus with 9 samples.

Results

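Small intestine RNA was compared between mice that received 3pRNA and an antibody blocking the type I interferon receptor before irradiation and mice that received 3pRNA alone before the same irradiation. The question was which of the genes expressed in the intestine after 3pRNA depended on signalling through IFNAR1. Genes were taken where the scaled count averaged 10 or more over the 6 libraries of these groups, which gave 14328 of the 19360 genes of the table. A scaled count is the number of reads in a gene after correction for library size by the authors' size factors. The gene nearest the limit had a mean of 10.0028 inside it and 9.99857 outside it.

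The blockade group (3pRNA + anti-IFNAR1 + TBI) received the antibody 48 h and 3pRNA 24 h before total body irradiation (TBI) at 9 Gy. Mice of the 3pRNA group (3pRNA + TBI) received 3pRNA 24 h before 9 Gy and no antibody. The last group, TBI, received 9 Gy alone and serves here as background. Each group held 3 wild-type Balb/c mice, an inbred strain, and small sections of small intestine were taken 12 h after irradiation. All mice compared were thus irradiated, and those of the first and second groups had all received 3pRNA. Mice given a control antibody, the carrier of 3pRNA or the blocking antibody without 3pRNA were not analysed here, so an effect of the antibody protein itself cannot be told apart from loss of the signal. The sources differ on whether the antibody was injected intravenously or intraperitoneally. The study describes 3 biological replicates per group. The p-values rest on the spread between mice within all 3 groups, with each gene's variance drawn towards a trend over all genes tested.

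3pRNA is an RNA with a triphosphate at its end, the feature by which the cytosolic sensor RIG-I recognises viral RNA. RIG-I signals through MAVS to induce IFN-α and IFN-β, which bind the receptor made of IFNAR1 and IFNAR2. The receptor kinases JAK1 and TYK2 then phosphorylate STAT proteins, which join IRF9 and bind the interferon-stimulated response element in the promoters of many antiviral genes. In the gut, epithelial cells, stromal cells and leukocytes all carry this receptor. Type III interferons use another receptor but the same signalling factors, and IFN-γ has a receptor of its own.

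The 3 blockade libraries held 9393195, 11110223 and 6487053 reads in genes and the 3pRNA libraries 12751896, 19946586 and 9526537 reads. Between the 6 libraries, log2 values correlated across genes at r of 0.965 to 0.987. Of 10 marker genes of small intestinal epithelium none was called, beside 1.42% of all genes tested. Their summed scaled counts were 217370 to 236790 in blockade mice and 190860 to 232600 in 3pRNA mice. Tissue around the mucosa varied from mouse to mouse. Smooth muscle genes summed to 17042 to 28537 in blockade mice and 23543 to 30244 in 3pRNA mice, with blockade replicate 2 lowest. Adipocyte genes summed to 554 in blockade replicate 2 against 942 to 3111 in the other blockade mice and 1448 to 3242 in 3pRNA mice. The follicular B cell genes Ms4a1 and Cr2 had at most 8.29 scaled counts in replicate 2 of each group and 6.55 in TBI replicate 1, against 48.1 to 125 in the other mice. None of the 11 smooth muscle, 8 adipocyte and 10 B and plasma cell genes tested was called. Their median log2 changes were -0.10, -1.68 and -0.08. All 8 adipocyte genes were below 0, so the lack of calls does not show equal adipocyte content. In bulk tissue, fewer cells of a type and less RNA per cell cannot be told apart.

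More genes were lower than higher under blockade. Of the 14328 genes, 177 (1.24%) were lower and 27 (0.188%) were higher in blockade mice than in 3pRNA mice, which is 1.42% in either direction, by limma with Benjamini-Hochberg adjustment at a threshold of 0.05. Changes are given as log2 of the scaled count plus 1, a scale that understates the change of low genes. The median change of all genes tested was 0.0015, and 49.7% of them were below 0. In all 177 lower genes each blockade mouse lay under each 3pRNA mouse, against 7.27% of genes tested, and in all 27 higher genes each lay above, against 8.17%. The calls came from the same values, so this separation is not independent of them. The mean level left under blockade was under 5% of the 3pRNA mean in 9 lower genes, 5% to 10% in 14, 10% to 25% in 39, 25% to 50% in 55 and above that in the remaining 60, with a median of 38.2%. The falls reached -7.20 and the rises only 1.32 on the log2 scale. The groups did not overlap in any of the 204 genes, so leaving out a single library could not change a sign. The number of calls did move. Lower calls numbered 81 without 3pRNA replicate 1, 98 without blockade replicate 1 and 116 without blockade replicate 3, and 149 or more without any other library. Higher calls numbered 10 without 3pRNA replicate 1, and 11, 16 and 15 without blockade replicates 1, 2 and 3. In all 9 such fits 78 lower and 7 higher genes were called.

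**Figure D1:**
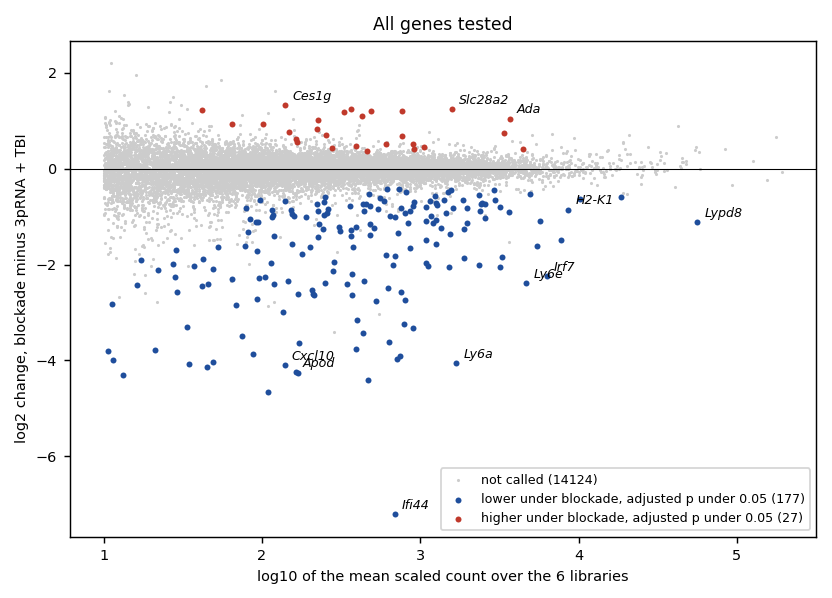
Log2 change of each of the 14328 genes tested (vertical axis, blockade minus 3pRNA + TBI) against the log10 of its mean scaled count over the 6 libraries (horizontal axis). The 177 lower genes lie at all levels of expression and reach a log2 change of -7.20, while the 27 higher genes stay between 0.37 and 1.32.

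The largest fall was that of Ifi44. This gene, which encodes a cytoplasmic protein that restrains virus growth, had 11.8, 21.9 and 1.73 scaled counts in blockade mice, against 1499.6, 1259 and 1342 in 3pRNA mice. That is a log2 change of -7.20 (SE 0.61, adjusted p = 0.00015), and it left 0.863% of the 3pRNA mean, with 10, 21 and 1 reads behind the blockade values. Its neighbour Ifi44l had 10.6, 6.25 and 5.18 scaled counts in blockade mice and 225, 140.3 and 264 in 3pRNA mice. The small membrane protein gene Ifi27l2a had 52.9, 43.8 and 29.3 scaled counts in blockade mice and 978, 839.6 and 857 in 3pRNA mice, and in each of these genes the groups were far apart.

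Ly6a, the gene of the surface protein Sca-1, which marks stem cells of several tissues, had 149, 230.4 and 197 scaled counts in blockade mice against 3539.8, 2649.5 and 3359 in 3pRNA mice (log2 change -4.05, SE 0.22, adjusted p = 9.8e-06). Its blockade values varied little from mouse to mouse and lay under the 501, 290.4 and 522 of the TBI mice. The PHD finger gene Phf11d had 15.3, 27.1 and 8.63 scaled counts in blockade mice and 295, 252 and 408 in 3pRNA mice. Phf11b, its neighbour, had 2.35, 4.17 and 1.73 in blockade mice and 77.5, 29.6 and 91.1 in 3pRNA mice, with a wide spread among the 3pRNA mice. Apod, which encodes apolipoprotein D, a carrier of small lipids, was among the 6 largest falls and stood in none of the lists of interferon-stimulated genes. It had 16.5, 11.5 and 18.98 scaled counts in blockade mice against 363, 303 and 264 in 3pRNA mice (log2 change -4.24, SE 0.23, adjusted p = 9.8e-06). The TBI mice had 10.2, 8.49 and 8.12, so the gene stood well above background in the 3pRNA mice alone. The summed adipocyte level, 554 to 3111 in blockade mice and 1448 to 3242 in 3pRNA mice, overlapped between the groups. All 8 adipocyte genes tested were below 0 (median log2 change -1.68), though none was called. The part of adipocyte content in the fall of Apod was not tested.

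Some of the largest fitted falls rest on very few reads. In the blockade mice Pydc3 had 1, 0 and 0 reads, Phf11a 1, 0 and 0 reads, BC094916 0, 0 and 1 reads and Gbp10 0, 3 and 3 reads. The scaled counts of the 3pRNA mice were 22.3, 16.6 and 39.5 for Pydc3, 21.4, 9.47 and 36.2 for Phf11a, 30.3, 8.88 and 23.04 for BC094916 and 40.96, 34.9 and 42.8 for Gbp10. No fold is given for these genes, since the fitted value depends on the added count of 1. Single libraries decided several of these calls, which were lost for Pydc3 (adjusted p up to 0.12) without blockade replicate 2 or 3 or 3pRNA replicate 1, 2 or 3, for Phf11a (adjusted p up to 0.12) without blockade replicate 3 or 3pRNA replicate 1 or 3, for BC094916 (adjusted p up to 0.18) without blockade replicate 1 or 2 or 3pRNA replicate 1 or 3, and for Gbp10 (adjusted p up to 0.12) without blockade replicate 1 or 3pRNA replicate 1, 2 or 3.

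**Figure D2:**
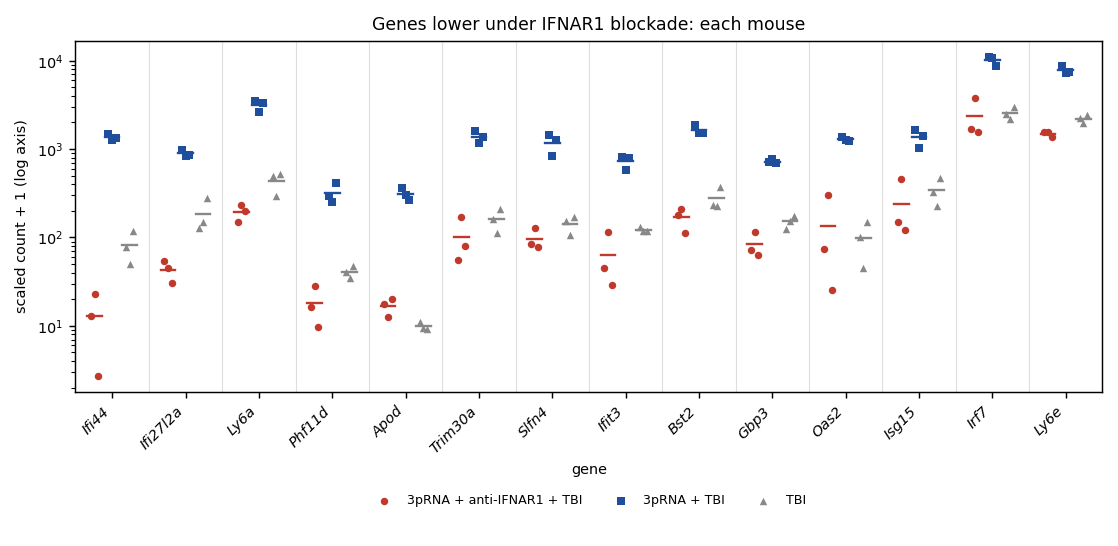
Scaled counts plus 1 on a log axis for 14 lower genes, with a point for each mouse (from the left within each gene, 3pRNA + anti-IFNAR1 + TBI, 3pRNA + TBI, TBI; within a group, replicates 1, 2 and 3) and a bar at the mean. In every gene the blockade points lie under the 3pRNA + TBI points, and in Oas2 and Isg15 blockade replicate 2 stands above the other blockade mice, at 302 and 452.

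The core of the interferon-stimulated response element, which the comparison did not use, was looked for in promoters. The core searched was GAAA, any 2 bases and GAAA, on either strand, in RefSeq windows from 250 bases before to 50 bases after each start site (GRCm38.p6). Of the 177 lower genes 143 had a window, and 56 of these (39.2%) held the core. It was in 3.41% of the 10531 genes with a window that were tested and not called, and in 3.99% of all 27025 genes of the promoter table. Among the lower genes with a log2 change of -2 or below, 28 of 47 with a window held it (59.6%), and among those with smaller falls 28 of 96 (29.2%). Under 80% of the genes had a window among the deepest falls (73.4%), the higher genes (74.1%) and the genes not called (74.6%), so the check is void for these 3 groups and their shares describe the matched genes alone. Of the 81 matches in lower genes 71.6% began within 150 bases before the start site, against 47.9% of the 1210 matches in all windows, and 18 lower genes had at least 2 matches in a window. Overlapping matches were counted separately, such as those at bases -45 and -39 in Gbp3. The count of 18 was not taken over all genes, so it has no share to stand beside. A match is a string of letters and does not show that a factor binds there.

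The 4 windows printed are those of the lower genes with the largest fitted falls among the genes that hold the core, which is in capitals. For Pydc3 and Phf11a, with 0 or 1 reads in each blockade mouse, that rank depends on the added count of 1. They come from the reference strain and not from Balb/c, on the strand of the gene. Pydc3 is listed there as Ifi208 (chr1:173673415-173673714, plus strand), with the core at base -58 from the start site. Cxcl10 (chr5:92348840-92349139, minus strand) holds it at base -213. Phf11b (chr14:59341281-59341580, minus strand) and Phf11a (chr14:59297473-59297772, minus strand) hold it at bases -50 and -29. Shifted by 21 bases, the windows of Phf11b and Phf11a were identical at 274 of 279 bases, the core included.
Pydc3: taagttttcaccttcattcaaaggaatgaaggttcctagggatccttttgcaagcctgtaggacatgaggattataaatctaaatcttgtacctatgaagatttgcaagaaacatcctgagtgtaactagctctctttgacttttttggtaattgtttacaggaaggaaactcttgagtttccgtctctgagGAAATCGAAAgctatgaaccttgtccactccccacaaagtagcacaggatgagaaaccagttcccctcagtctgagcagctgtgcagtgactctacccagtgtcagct
Cxcl10: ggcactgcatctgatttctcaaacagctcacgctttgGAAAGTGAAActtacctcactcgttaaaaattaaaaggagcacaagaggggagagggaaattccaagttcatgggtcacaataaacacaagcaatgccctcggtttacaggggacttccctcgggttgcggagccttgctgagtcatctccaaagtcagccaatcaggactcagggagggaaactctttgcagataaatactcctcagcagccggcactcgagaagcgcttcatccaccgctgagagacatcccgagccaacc
Phf11b: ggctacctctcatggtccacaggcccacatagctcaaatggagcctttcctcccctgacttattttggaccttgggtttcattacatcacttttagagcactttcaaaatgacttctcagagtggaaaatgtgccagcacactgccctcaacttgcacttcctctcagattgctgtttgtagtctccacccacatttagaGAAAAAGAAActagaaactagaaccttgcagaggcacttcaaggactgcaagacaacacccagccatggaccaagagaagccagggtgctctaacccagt
Phf11a: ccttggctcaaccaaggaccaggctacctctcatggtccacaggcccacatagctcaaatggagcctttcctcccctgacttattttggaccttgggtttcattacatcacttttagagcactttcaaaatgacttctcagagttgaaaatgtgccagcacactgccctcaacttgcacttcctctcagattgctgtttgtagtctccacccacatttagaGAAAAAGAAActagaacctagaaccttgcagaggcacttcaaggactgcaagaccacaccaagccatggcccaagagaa

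Genes that act on viral RNA made up the longest of the antiviral lists. Of 30 tested, 21 were lower and none higher (median log2 change -1.86, against 0.0015 for all genes tested), and 1 of the remaining 9 was above 0. The lists used here were drawn up with earlier results of these data known, so their counts are descriptions. They stand beside 1.24% lower and 0.188% higher of all genes tested. The Schlafen genes, which encode proteins that act on tRNA and on virus replication, fell together. Slfn4 had 82.3, 127 and 77.7 scaled counts in blockade mice and 1449, 841 and 1252 in 3pRNA mice. Slfn8 had 12.9, 7.30 and 10.4 in blockade mice against 163, 106 and 230.4 in 3pRNA mice. Slfn5 had 71.8, 92.8 and 58.7 in blockade mice and 759, 755 and 881 in 3pRNA mice, and in all 3 genes the groups lay far apart. Their log2 changes were -3.61, -3.86 and -3.43, with adjusted p = 3.4e-05, 0.00014 and 3.8e-05. Slfn2 and Slfn1 were lower as well (-2.41 and -2.44), and Slfn9 was not called (log2 change -0.76, adjusted p = 0.36). With 3pRNA replicate 1 left out, Slfn1 was not called (adjusted p up to 0.071).

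The IFIT proteins bind viral RNA through tetratricopeptide repeats. Ifit3 had 44.7, 114 and 27.6 scaled counts in blockade mice and 811, 581 and 791 in 3pRNA mice (log2 change -3.76, SE 0.38, adjusted p = 0.00052). Its copy I830012O16Rik, which the reference names Ifit3b, had 18.8, 34.4 and 22.4 in blockade mice and 327, 275 and 349 in 3pRNA mice, and reads could be shared between such copies. Ifit2 had 111, 234 and 126 in blockade mice against 1453, 1134 and 1659 in 3pRNA mice, and Ifit1, the most abundant of them by scaled count, 565, 1562 and 542 in blockade mice against 3372, 2557 and 2674 in 3pRNA mice. In Ifit1, Ifit2 and Ifit3 alike, blockade replicate 2 was highest of the blockade mice and still under every 3pRNA mouse. Ifit1 lost its call without blockade replicate 1 or 3 or 3pRNA replicate 1 (adjusted p up to 0.1).

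The oligoadenylate synthases sense double-stranded RNA and make an antiviral second messenger. Oas2 had 72.9, 302 and 24.2 scaled counts in blockade mice against 1374, 1255 and 1241 in 3pRNA mice. In no other lower gene was blockade replicate 2 so far above replicates 1 and 3, at 6.23 times their mean. Oas3 had 789, 1893 and 483 in blockade mice and 4219, 3636 and 3123 in 3pRNA mice, and Oasl2 had 867, 2671 and 723 in blockade mice and 5398, 4675 and 4689 in 3pRNA mice. Oas1a (-1.96) and Oas1g (-1.80), near-identical genes whose reads may be shared, also fell. Single libraries decided several of these calls, which were lost for Oas2 (adjusted p up to 0.098) without blockade replicate 1 or 3pRNA replicate 1, 2 or 3, for Oas3 (adjusted p up to 0.13) and Oas1a (adjusted p up to 0.12) without blockade replicate 1 or 3 or 3pRNA replicate 1, 2 or 3, and for Oasl2 (adjusted p up to 0.16) and Oas1g (adjusted p up to 0.15) without blockade replicate 1 or 3, 3pRNA replicate 1, 2 or 3 or TBI replicate 1. Eif2ak2, the kinase PKR that halts translation on double-stranded RNA, fell by less (721, 1095 and 640.3 in blockade mice and 1728, 1628 and 1699 in 3pRNA mice, log2 change -1.08, adjusted p = 0.0068), as did the RNA editing enzyme gene Adar (-0.92). Rsad2, the gene of viperin, which makes a chain-terminating nucleotide, had 124, 433 and 96.6 in blockade mice and 1161, 581 and 1373 in 3pRNA mice. When any of the libraries named was left out, calls were lost for Adar (adjusted p up to 0.069) without blockade replicate 1 or 3 or 3pRNA replicate 1, and for Rsad2 (adjusted p up to 0.14) without blockade replicate 1 or 3 or 3pRNA replicate 1 or 3.

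Among 20 genes of antiviral proteins at membranes and on the cell surface, 15 were lower and none higher (median log2 change -1.51). Ly6e, a surface protein that blocks fusion of coronaviruses, had the smallest p of all genes tested. Its scaled counts were 1567, 1554 and 1367 in blockade mice and 8620.2, 7322 and 7495 in 3pRNA mice (log2 change -2.38, SE 0.10, adjusted p = 2.1e-06), so the mice of a group hardly differed. Bst2, the gene of tetherin, which ties budding virions to the cell, had 180, 212 and 112 in blockade mice and 1882, 1503 and 1525 in 3pRNA mice (log2 change -3.32). Ifitm3, which stops viruses at the endosome, had 602, 547 and 606 in blockade mice and 2579, 2137 and 2605 in 3pRNA mice (log2 change -2.05). Its relatives Ifitm1 (-0.57, adjusted p = 0.16) and Ifitm2 (-0.14, adjusted p = 0.72) were not called. Ms4a4c, a gene of a small family with membrane-spanning proteins of leukocytes, had 4.71, 4.17 and 5.18 in blockade mice against 115, 69.9 and 94.4 in 3pRNA mice. The galectin ligand gene Lgals3bp, at a high scaled count, had 3773, 5902 and 2839 in blockade mice against 11502, 12576 and 9586 in 3pRNA mice (log2 change -1.48, adjusted p = 0.0069).

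ISG15 is a ubiquitin-like protein that is coupled to new proteins in infected cells, and USP18 removes it and also damps IFNAR2. Isg15 had 149, 452 and 119 scaled counts in blockade mice against 1659, 1040.3 and 1394 in 3pRNA mice (log2 change -2.73, SE 0.43, adjusted p = 0.0089), and Usp18 had 106, 315 and 63.9 in blockade mice against 1038, 721 and 889 in 3pRNA mice (log2 change -2.75, SE 0.44, adjusted p = 0.0092). Some of these calls were lost when a single library was left out, for Isg15 (adjusted p up to 0.059) and Usp18 (adjusted p up to 0.06) without blockade replicate 1 or 3pRNA replicate 1. The enzymes that couple ISG15 changed by -0.68 (Uba7, which activates it), -1.34 (Ube2l6, which carries it) and -2.04 (Herc6, the ligase). Single libraries decided several of these calls, which were lost for Uba7 (adjusted p up to 0.071) without blockade replicate 3 or 3pRNA replicate 1, for Ube2l6 (adjusted p up to 0.11) without blockade replicate 1 or 3 or 3pRNA replicate 1 or 2, and for Herc6 (adjusted p up to 0.067) without blockade replicate 1 or 3 or 3pRNA replicate 1. Trim30a, a TRIM ligase gene, had 54.1, 171 and 79.4 in blockade mice and 1607, 1169 and 1353 in 3pRNA mice (log2 change -3.90, adjusted p = 0.00021). In all, 8 of 14 genes of this machinery were lower and none higher, with a median log2 change of -1.48. It was also the list in which blockade replicate 2 lay furthest above the other blockade mice, by a median of 0.80 on the log2 scale.

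Of 26 genes of dynamin-like GTPases and further antiviral effectors, 21 were lower and 1 was higher (median log2 change -1.04). Mx2 had 44.7, 94.9 and 43.1 scaled counts in blockade mice and 436, 269 and 377 in 3pRNA mice (log2 change -2.62, adjusted p = 0.0014), and Mx1, whose product blocks influenza virus but is defective in most inbred strains, had 72.9, 110.5 and 56.95 in blockade mice and 449.7, 281 and 533 in 3pRNA mice. The nuclear body genes moved by less but with small errors. Sp100 changed by -1.82 (SE 0.17, adjusted p = 0.00024), Pml by -0.80 (SE 0.10, adjusted p = 0.002) and Daxx by -0.77 (SE 0.10, adjusted p = 0.0028). The higher member was Gm14085, which stood in the heat map of the study and for that reason in this list. The reference gives it as Slc28a2b, a nucleoside transporter gene, so it is described with Slc28a2 among the rises. Over the RNA-directed, membrane, ISG15 and dynamin-like lists together, here called the interferon-stimulated lists, 65 of 90 genes were lower. The study's heat map held genes of an interferon database that it found changed in 3pRNA mice against both other groups, blockade mice included. List membership taken from that heat map was thus chosen on the values compared here. The counts and medians of these lists are not independent of this choice.

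Guanylate-binding proteins and immunity-related GTPases attack the membranes around intracellular pathogens and respond to IFN-γ as well as to type I interferon. Of 16 tested, 12 were lower and none higher (median log2 change -1.84). Gbp3 had 70.6, 115 and 62.1 scaled counts in blockade mice and 705, 763 and 687 in 3pRNA mice (log2 change -3.16, SE 0.20, adjusted p = 2.6e-05). Gbp9 had 45.9, 45.9 and 48.3 in blockade mice and 234, 186 and 320.4 in 3pRNA mice. Irgm1, which directs the other GTPases to their targets, had 525, 822 and 590.2 in blockade mice and 2031, 1801 and 1817 in 3pRNA mice (log2 change -1.57), and Iigp1 had 87.04, 93.8 and 123 in blockade mice and 443, 322 and 619 in 3pRNA mice. Here blockade replicate 2 did not stand apart, with a median log2 difference of 0.08 from the other blockade mice. Ifng itself was at 0 to 1.73 scaled counts in blockade mice and 0 to 1.78 in 3pRNA mice, and was not tested.

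No receptor chain or receptor kinase was called, and the lower genes of this list were transcription factors. Ifnar1, the target of the antibody, had 554, 622 and 642 scaled counts in blockade mice and 617, 626 and 518 in 3pRNA mice, which overlap (log2 change 0.05, adjusted p = 0.92). The antibody binds the protein, so this transcript does not check the block. Ifnar2, Jak1, Tyk2, both chains of the IFN-γ receptor and Ifnlr1, the receptor chain for type III interferon, were not called, at adjusted p of 0.54 to 0.97. Irf7, the interferon-induced factor that amplifies IFN-α, had 1709, 3785 and 1546 in blockade mice and 11109, 10840 and 8762 in 3pRNA mice (log2 change -2.24, SE 0.28, adjusted p = 0.0019). Of the components of the factor that binds the response element, Stat2 had 1010.4, 1501 and 1009.6 in blockade mice and 2116, 1874 and 2104 in 3pRNA mice (log2 change -0.81, adjusted p = 0.019). Irf9 had 525, 721 and 409 in blockade mice and 999, 968 and 892 in 3pRNA mice (log2 change -0.83, adjusted p = 0.037). When any of the libraries named was left out, calls were lost for Stat2 (adjusted p up to 0.1) without blockade replicate 1 or 3 or 3pRNA replicate 1 or 3, and for Irf9 (adjusted p up to 0.17) without blockade replicate 1 or 3, 3pRNA replicate 1, 2 or 3 or TBI replicate 1 or 3. Irf1, Irf3, Irf5 and Irf8 were not called. In total 4 of 19 genes of this list were lower (median log2 change -0.02), and of 9 feedback regulators only Usp18 was, while Socs1 (-0.76, adjusted p = 0.32) and Socs3 (-0.40, adjusted p = 0.8) missed the threshold. Of 21 interferon genes listed, Ifng alone stood in the table.

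**Figure D3:**
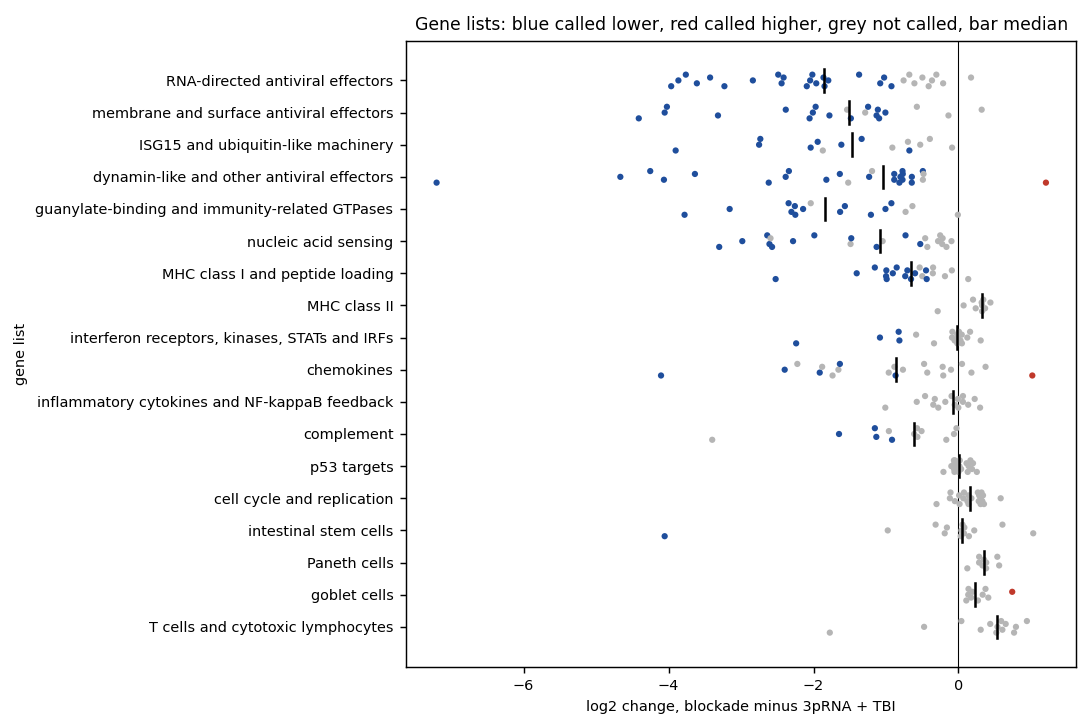
Log2 change (horizontal axis, blockade minus 3pRNA + TBI) of every tested gene in 18 of the 38 lists, blue where lower, red where higher and grey where not called, with a bar at the list's median. The antiviral lists, with medians from -1.04 to -1.86, lie left of 0, while the p53, Paneth cell, goblet cell and T cell lists have medians from 0.00 to 0.54.

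Sensors of foreign nucleic acid were lower in part. Of 22 genes, 11 were lower, and all 22 were below 0 (median log2 change -1.09), beside 49.7% of all genes tested. The AIM2-like receptors lie side by side in the genome and fell together. Ifi204 had 25.9, 26.1 and 36.2 scaled counts in blockade mice and 229.8, 180 and 319 in 3pRNA mice (log2 change -2.98, adjusted p = 0.00021), Mndal had 43.5, 45.9 and 51.8 in blockade mice and 317, 263 and 296 in 3pRNA mice, and Ifi203 had 156, 229 and 283 in blockade mice and 1299, 1338 and 1243 in 3pRNA mice. These genes are much alike, and reads may be shared among them. Aim2, the founding member, was not called (205, 263 and 226 in blockade mice and 243, 295 and 239 in 3pRNA mice). Of the RIG-I-like receptors, Dhx58, the gene of the regulator LGP2, fell most, with 83.5, 215 and 53.5 in blockade mice against 708, 529.9 and 636 in 3pRNA mice (log2 change -2.64, adjusted p = 0.0047). Ddx58, which encodes RIG-I itself, had 614, 1114 and 606 in blockade mice against 1755, 1532 and 1617 in 3pRNA mice (log2 change -1.13, adjusted p = 0.013), and Ifih1, the gene of MDA5, changed by -0.73 (adjusted p = 0.046). Some of these calls were lost when a single library was left out, for Ddx58 (adjusted p up to 0.083) without blockade replicate 1 or 3 or 3pRNA replicate 1, and for Ifih1 (adjusted p up to 0.21) without blockade replicate 1 or 3, 3pRNA replicate 1, 2 or 3 or TBI replicate 1, 2 or 3. The adaptors Mavs (-0.10, adjusted p = 0.76) and Tmem173, the gene of STING (-0.28, adjusted p = 0.82), were not called.

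The median change of antigen presentation genes differed by class. Of 21 genes of MHC class I and peptide loading, 14 were lower and none higher (median log2 change -0.65), beside 1.24% lower of all genes tested. The classical gene H2-K1 had 5911, 6732 and 5644 scaled counts in blockade mice and 12042, 11726 and 9357 in 3pRNA mice (log2 change -0.85, SE 0.11, adjusted p = 0.0032). The nonclassical H2-T24 fell most, with 42.3, 115 and 43.1 in blockade mice and 369, 307 and 368 in 3pRNA mice (log2 change -2.52, adjusted p = 0.0036), and H2-Q6 and H2-Q4 changed by -1.15 and -0.65. Of the immunoproteasome and transport genes that lie together in the MHC, Psmb8 changed by -0.70 (adjusted p = 0.018), Psmb9 by -0.73 (adjusted p = 0.019) and Tap1 by -0.99 (adjusted p = 0.017). Single libraries decided several of these calls, which were lost for Psmb8 (adjusted p up to 0.1) without blockade replicate 1 or 2 or 3pRNA replicate 1, for Psmb9 (adjusted p up to 0.1) without blockade replicate 1 or 3 or 3pRNA replicate 1, and for Tap1 (adjusted p up to 0.098) without blockade replicate 1 or 3 or 3pRNA replicate 1 or 3. Reads of the near-identical H2 genes cannot be assigned with certainty, and the reference strain carries other alleles than Balb/c. B2m, the shared light chain, had 15624, 17043 and 14653 in blockade mice and 24072, 24946 and 18330 in 3pRNA mice, which do not overlap, but was not called (log2 change -0.50, adjusted p = 0.14). None of 10 MHC class II genes was called, where 1.42% of all genes tested were called and 49.7% were below 0. Of these 10, 9 were above 0 (median 0.32), with Cd74, the invariant chain, at 16231, 17738 and 17076 in blockade mice and 14091, 15229 and 10664 in 3pRNA mice (adjusted p = 0.35).

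Chemokines that draw T cells through CXCR3 fell. Cxcl10 had 10.6, 10.4 and 12.1 scaled counts in blockade mice, against 200.4, 83.5 and 517 in 3pRNA mice (log2 change -4.10, SE 0.58, adjusted p = 0.0046). The blockade mice were nearly equal, while the 3pRNA mice differed several-fold. Cxcl9 had 49.4, 19.8 and 37.97 in blockade mice and 175, 101 and 332 in 3pRNA mice (log2 change -2.40, adjusted p = 0.013), and Cxcl11 changed by -1.64 (adjusted p = 0.035). When any of the libraries named was left out, calls were lost for Cxcl9 (adjusted p up to 0.068) without 3pRNA replicate 1, and for Cxcl11 (adjusted p up to 0.16) without blockade replicate 1, 2 or 3, 3pRNA replicate 1 or 3 or TBI replicate 1. Ccl5, which is made by cytotoxic lymphocytes, went the other way, with 296, 277 and 323 in blockade mice and 198, 132 and 121 in 3pRNA mice (log2 change 1.02, adjusted p = 0.0092). Ccl5 lost its call without blockade replicate 3 (adjusted p up to 0.052). Over the 21 chemokine genes 5 were lower and 1 was higher. No inflammatory cytokine or NF-κB feedback gene was called among 16 tested (median log2 change -0.07), beside 1.42% of all genes tested. Tnf had 9.41, 12.5 and 12.1 in blockade mice and 20.5, 18.9 and 34.02 in 3pRNA mice (adjusted p = 0.39). Of 13 complement genes 4 were lower. C4b, which helps form the convertase of the classical pathway, had 499.9, 336 and 411 in blockade mice and 1151, 1080.5 and 1714 in 3pRNA mice (log2 change -1.65, adjusted p = 0.0024), and Serping1, which encodes the C1 inhibitor, had 572, 469 and 511 in blockade mice and 1022, 972 and 1460.5 in 3pRNA mice. C3 was not called (log2 change -0.96, adjusted p = 0.34).

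Leukocyte genes did not move as one. Ly6g, known as a surface marker of neutrophils, had 8.23, 9.38 and 17.3 scaled counts in blockade mice against 98.8, 134 and 183 in 3pRNA mice (log2 change -3.49, SE 0.33, adjusted p = 0.00031). The TBI mice had 11.6, 8.49 and 12.8. The calprotectin genes of neutrophils were not called, S100a8 having 15.3, 14.6 and 20.7 in blockade mice and 14.2, 6.51 and 44.99 in 3pRNA mice (adjusted p = 0.996). S100a9 had 38.8, 34.4 and 46.6 in blockade mice and 45.4, 11.8 and 94.4 in 3pRNA mice, and 6 of the 10 neutrophil genes were not tested. Summed over the other 3 genes tested, the level was 64.6 to 104 in blockade mice and 37.9 to 207 in 3pRNA mice, which overlap. Ly6g lies next to Ly6c1, Ly6c2, Ly6a and Ly6e, which all fell. Among 12 macrophage and monocyte genes, the activating Fc receptor genes Fcgr1 (log2 change -2.03, adjusted p = 0.002) and Fcgr4 (-1.71, adjusted p = 0.0006) were lower. Fcgr4 had 50.6, 36.5 and 41.4 in blockade mice and 134, 125 and 167 in 3pRNA mice. Plac8 was lower too (-0.63, adjusted p = 0.041), whereas Adgre1, Csf1r and Cd68, which define the lineage, were not called (adjusted p of 0.82 to 0.91). The call for Plac8 did not survive the loss of blockade replicate 1 or 3, 3pRNA replicate 1 or 2 or TBI replicate 1, 2 or 3 (adjusted p up to 0.21). No gene of 13 for T cells and cytotoxic lymphocytes was called, beside 1.42% of all genes tested. In 8 of the 13 each blockade mouse lay above each 3pRNA mouse, beside 8.17% of all genes tested, among them the granzyme gene Gzma, with 493, 439 and 573 in blockade mice and 356, 266 and 250.2 in 3pRNA mice (adjusted p = 0.057). In 1 of the 13 each blockade mouse lay under each 3pRNA mouse, beside 7.27% of all genes tested. The list was not uniform, with 2 genes below 0 and log2 changes from -1.78 to 0.94. The list's sum was 1362 to 1721 in blockade mice and 867 to 1189 in 3pRNA mice, which moves with Ccl5 and whose part in its rise was not tested.

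Of the 14 stem cell, 9 Paneth cell and 10 goblet cell genes tested, 1, 0 and 1 were called, beside 1.42% of all genes tested. Lgr5, the marker of crypt base stem cells, had 104, 128 and 131 scaled counts in blockade mice and 61.4, 91.2 and 86.7 in 3pRNA mice, higher in each blockade mouse but not called (log2 change 0.61, SE 0.20, adjusted p = 0.27). Of 14 stem cell genes only Ly6a was called. All 9 Paneth cell genes tested were above 0 (median 0.35), with the lysozyme gene Lyz1 at 19409, 26139 and 22476 in blockade mice and 15272, 14633 and 15862 in 3pRNA mice (adjusted p = 0.065). All 10 goblet cell genes were above 0 as well, where 49.7% of all genes tested were below 0. Spink4, a peptide gene of goblet cells, was called, with 4133, 4541 and 3961 in blockade mice and 2502, 2656 and 2389.8 in 3pRNA mice (log2 change 0.74, SE 0.09, adjusted p = 0.0017). Muc2, the mucin of the goblet cell, was not (log2 change 0.33, adjusted p = 0.35). None of 22 cell cycle genes (median 0.16) and none of 21 p53 targets (median 0.00) was called, beside 1.42% of all genes tested. Of 14 cell death genes Mlkl alone was called. This gene encodes the pore protein of necroptosis and had 175, 197 and 159 in blockade mice and 504, 377 and 440 in 3pRNA mice (log2 change -1.31, SE 0.13, adjusted p = 0.00039).

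Secreted defence and repair factors gave 2 calls in 15. Saa3, an acute phase amyloid A gene, had 61.2, 44.8 and 69.03 scaled counts in blockade mice and 368, 288 and 448 in 3pRNA mice (log2 change -2.63, SE 0.24, adjusted p = 0.00021). Areg, the gene of amphiregulin, an EGF receptor ligand of wound repair, had 193, 197 and 178 in blockade mice and 296, 306 and 316 in 3pRNA mice (log2 change -0.69, SE 0.09, adjusted p = 0.0023), and the TBI mice had 195, 212 and 206. The antimicrobial lectin gene Reg3g had 57154, 79215 and 112190 in blockade mice and 102500, 75345 and 134100 in 3pRNA mice, which overlap (log2 change -0.34, adjusted p = 0.76). Itgb6, the integrin that activates TGF-β in epithelium, was not called either (log2 change 0.23, adjusted p = 0.64).

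Outside the lists 55 further genes were lower. By smallest p they began with Apod and continued with Il18bp, whose product neutralises IL-18, at 208, 194 and 242 scaled counts in blockade mice and 547, 486 and 521 in 3pRNA mice (log2 change -1.27, SE 0.10, adjusted p = 0.0001). Siglec1, the sialic acid receptor of macrophages that take up virus, had 14.1, 27.1 and 32.8 in blockade mice and 130, 157 and 193 in 3pRNA mice (log2 change -2.71, adjusted p = 0.0019). Gm4951, which the reference lists as the interferon-inducible GTPase Ifgga2, had 3.53, 4.17 and 3.45 in blockade mice and 67.7, 62.2 and 128 in 3pRNA mice. Acadl, a mitochondrial enzyme of fatty acid oxidation, had 1726, 1830.5 and 2040 in blockade mice and 3161, 3012 and 3038 in 3pRNA mice, a small change with a small error (log2 change -0.72, SE 0.08, adjusted p = 0.0014). Sass6, a centriole assembly gene, changed by -1.26 (adjusted p = 0.0013), and Enpp4, a surface phosphodiesterase gene, by -0.84 (adjusted p = 0.0024). Hsh2d, an adaptor gene of lymphocytes, had 17.6, 19.8 and 15.5 in blockade mice and 64.1, 62.2 and 76.8 in 3pRNA mice (log2 change -1.88, adjusted p = 0.0018), and Trafd1, a feedback regulator of innate signalling, changed by -0.76 (adjusted p = 0.0039). The most abundant lower gene by scaled count was Lypd8, named after its values were seen, which encodes a protein that keeps flagellated bacteria away from the epithelium. It had 29971, 40976 and 35939 in blockade mice against 83628, 80550 and 66246 in 3pRNA mice (log2 change -1.11, SE 0.17, adjusted p = 0.0068). With blockade replicate 1 or 3pRNA replicate 1 left out, Lypd8 was not called (adjusted p up to 0.058).

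Of 15 genes of purine nucleoside handling 3 were higher and none lower (median log2 change 0.01), beside 0.188% higher of all genes tested. Slc28a2, the concentrative transporter for purine nucleosides, had 2062, 2318 and 2264 scaled counts in blockade mice and 784, 1054 and 982 in 3pRNA mice (log2 change 1.24, SE 0.13, adjusted p = 0.0007). Gm14085, named Slc28a2b in the reference, had 648, 665 and 718 in blockade mice and 253, 325 and 304 in 3pRNA mice (log2 change 1.21, SE 0.14, adjusted p = 0.0014). Reads may fit both copies, and how such reads were counted is not stated, so their values may not be independent. Ada, which deaminates adenosine, had 4781, 4177 and 5932 in blockade mice and 2088, 2504 and 2566 in 3pRNA mice (log2 change 1.05, adjusted p = 0.0037). Nt5e, the gene of CD73, which forms adenosine from AMP, had 1096, 986 and 1122 in blockade mice and 366, 637 and 418 in 3pRNA mice (log2 change 1.21, adjusted p = 0.019). Nt5e lost its call without blockade replicate 1 or 3 or 3pRNA replicate 1 or 3 (adjusted p up to 0.1). The other 12 of the 15 purine genes tested were not called, Xdh, an enzyme of purine breakdown, being below 0 (-0.44, adjusted p = 0.14). No other gene of the antiviral lists was higher.

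The other rises were of genes with varied functions. Pccb, a subunit of propionyl-CoA carboxylase, had the smallest p of the rises, with 590.5, 584 and 571 in blockade mice and 258, 266 and 294 in 3pRNA mice (log2 change 1.09, SE 0.08, adjusted p = 5.1e-05). Ces1g, a carboxylesterase gene, had the largest rise, with 238, 182 and 181 in blockade mice and 81.9, 63.9 and 94.4 in 3pRNA mice (log2 change 1.32, SE 0.23, adjusted p = 0.016). Plb1, a phospholipase of the brush border, had 529, 627 and 381 in blockade mice and 199, 207 and 233 in 3pRNA mice (adjusted p = 0.015). Single libraries decided several of these calls, which were lost for Ces1g (adjusted p up to 0.094) without blockade replicate 1 or 3pRNA replicate 1 or 2, and for Plb1 (adjusted p up to 0.086) without blockade replicate 1 or 2 or 3pRNA replicate 1 or 2. Nckap5 had 402, 494 and 469 in blockade mice and 177, 229 and 199 in 3pRNA mice (log2 change 1.17, adjusted p = 0.0014). Mex3b, an RNA-binding protein gene, had 68.2, 61.5 and 48.3 in blockade mice and 24.04, 25.5 and 24.1 in 3pRNA mice (adjusted p = 0.0069). Polr3g, a subunit of RNA polymerase III, had 144, 119 and 138 in blockade mice and 65.01, 68.1 and 73.5 in 3pRNA mice (log2 change 0.94, adjusted p = 0.0095). With blockade replicate 1 or 3pRNA replicate 1 left out, Polr3g was not called (adjusted p up to 0.061). Bmp8b, a ligand of the BMP family, had 95.3, 90.7 and 70.8 in blockade mice and 42.7, 47.96 and 41.7 in 3pRNA mice (log2 change 0.93, adjusted p = 0.01). Bmp8b lost its call without blockade replicate 1 or 3pRNA replicate 1 (adjusted p up to 0.063). Gsta3, a glutathione transferase gene, changed by 0.69 (adjusted p = 0.026). The call for Gsta3 did not survive the loss of blockade replicate 1 or 3 or 3pRNA replicate 1, 2 or 3 (adjusted p up to 0.12). Jag1, a ligand of Notch, changed by 0.62 (adjusted p = 0.042) and Deptor, an inhibitor of mTOR, by 0.45 (adjusted p = 0.025). When any of the libraries named was left out, calls were lost for Jag1 (adjusted p up to 0.19) without blockade replicate 1, 2 or 3, 3pRNA replicate 1 or 3 or TBI replicate 3, and for Deptor (adjusted p up to 0.14) without blockade replicate 1, 2 or 3 or 3pRNA replicate 1 or 3.

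**Figure D4:**
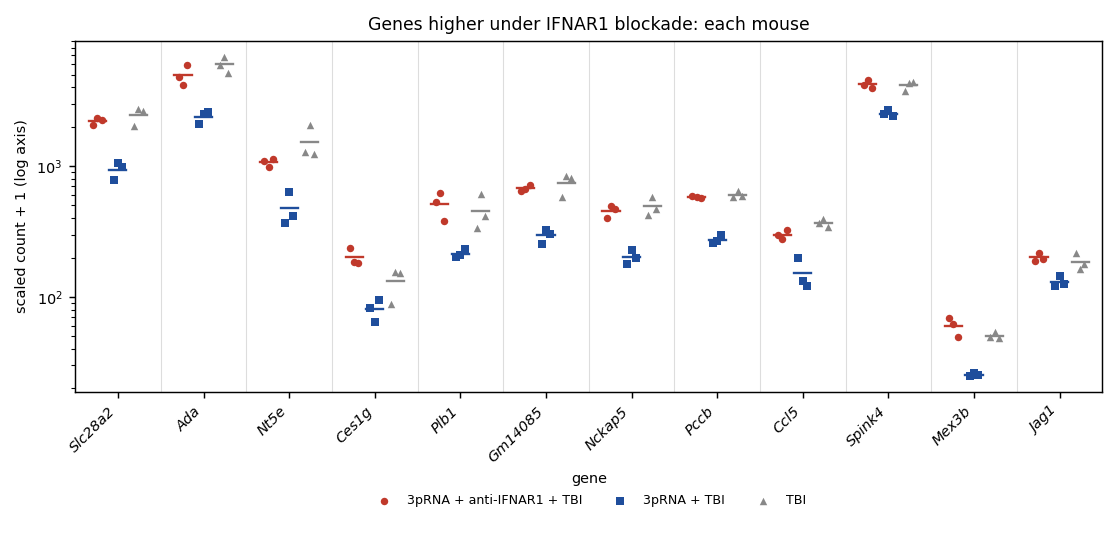
Scaled counts plus 1 on a log axis for 12 higher genes, with a point for each mouse (from the left within each gene, 3pRNA + anti-IFNAR1 + TBI, 3pRNA + TBI, TBI; within a group, replicates 1, 2 and 3) and a bar at the mean. In each gene the 3 blockade points lie above the 3 3pRNA + TBI points, for Slc28a2 at 2062, 2318 and 2264 in blockade mice against 784, 1054 and 982 in 3pRNA + TBI mice.

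Set beside the TBI mice, the blockade mean lay under the TBI mean in 161 of the 177 lower genes, and in 65 of them each blockade mouse lay under each TBI mouse. The 3pRNA mice stood above all TBI mice in 165 of the 177. Of the 27 higher genes, 24 had each 3pRNA mouse under each TBI mouse, and the blockade mean was within the range of the TBI mice in 10 and under the TBI mean in 18. The blockade mice and the 3pRNA mice set beside the TBI mice here also gave the calls. None of these counts is thus independent of the calls, and the same counts over all genes tested were not taken. Ly6e had 1567, 1554 and 1367 scaled counts in blockade mice and 2245, 1956 and 2432 in TBI mice.

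The 3 blockade mice were not alike. Replicate 2 was the highest of them in 108 of the 177 lower genes (61.02%), against 36.1% of genes tested, and at least 2 times the mean of replicates 1 and 3 in 25 of them (14.1%), against 0.53% of genes tested. These 25 were mostly antiviral effectors, 21 of them from the interferon-stimulated lists, and Oas2 led them, followed by Apol9a, Rsad2, Usp18 and Oas1b. Apol9a, from a pair of near-identical apolipoprotein L genes, had 96.5, 316 and 62.1 scaled counts in blockade mice and 679, 571 and 481 in 3pRNA mice (adjusted p = 0.039). Apol9a lost its call without blockade replicate 1 or 3, 3pRNA replicate 1, 2 or 3 or TBI replicate 1 or 3 (adjusted p up to 0.18). Over the 90 interferon-stimulated genes, the median level was 33.5% of the 3pRNA mean in blockade replicate 1, 51.3% in replicate 2 and 28.2% in replicate 3. Replicate 2 lay under every 3pRNA mouse in all 177 genes, but these genes were called from the same values, so that count depends on the calls. Other lower genes showed no such gap. In Ly6a, Ly6e, Apod, Slfn8, Gbp9 and Cxcl10 replicate 2 was between 0.627 and 1.33 times the mean of the others, and replicate 2 was the lowest of them in 41 lower genes. Replicate 2 was also the lowest blockade mouse in the summed smooth muscle genes (17042, against 28537 and 26882 in replicates 1 and 3) and adipocyte genes (554, against 3111 and 942). Their part in its levels was not tested. Without this library 166 genes were lower and 16 higher.

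**Figure D5:**
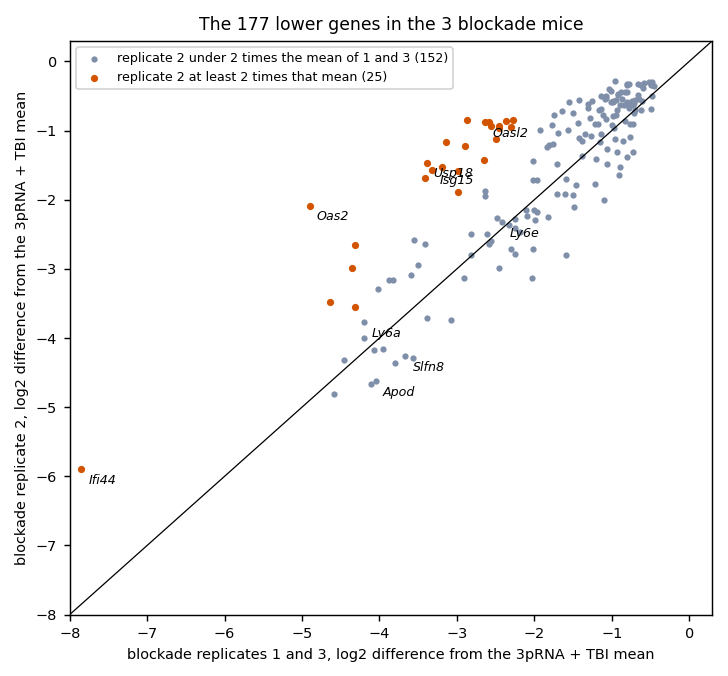
The 177 lower genes by their level in blockade replicate 2 (vertical axis) and in blockade replicates 1 and 3 (horizontal axis), both as log2 differences from the 3pRNA + TBI mean, with the line of equality. The 25 orange genes, at least 2 times as high in replicate 2, form a band above the line that includes Oas2 and Isg15, while Ly6a, Slfn8, Apod and Ly6e lie close to it.

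Lower genes also lay side by side. In the order of protein-coding genes tested, 66 of the 169 lower genes that could be placed (39.1%) were next to another lower gene, while 306 of all 13013 genes placed (2.35%) had a lower gene as neighbour. They formed 22 runs. The longest held 6 genes of AIM2-like receptors (BC094916, Pyhin1, Pydc3, AI607873, Ifi204 and Mndal), followed by 5 of the Ly6 family (Ly6e, Ly6a, Ly6c1, Ly6c2 and Ly6g) and 5 oligoadenylate synthases (Oas2, Oas3, Oas1c, Oas1b and Oas1a). Runs of 4 were formed by Slfn8, Slfn2, Slfn1 and Slfn4, by Ifit2, Ifit3, Gm14446 and I830012O16Rik, and by Gnl1, H2-T24, H2-T23 and H2-T22. Many of these neighbours are copies of each other, so shared reads can add to such runs. Runs of unrelated genes were short, among them Agrn with Isg15 and Serping1 with Ube2l6. Agrn, the gene of the basement membrane protein agrin and named after its values were seen, had 1823, 2356 and 1652 scaled counts in blockade mice and 3338, 3076 and 3185 in 3pRNA mice (log2 change -0.73, adjusted p = 0.0089). The call for Agrn did not survive the loss of blockade replicate 1 or 3pRNA replicate 1 (adjusted p up to 0.059).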

How the data were processed

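RNA of the small intestine was sequenced from 9 mice, 3 in each group, with an unstranded library kit. Reads were aligned to mm9 (STAR), assigned to genes (HTSeq) and scaled between libraries (DESeq) by the authors. The deposited table holds this normalised signal plus 1, so 1 was subtracted. For gene models and strand, the setting is not given in the sources used here, so reads of overlapping genes cannot be told apart. All 9 columns were mapped to samples by name, and 0 columns of per-sample values were left out. Per library 6487053 to 19946586 reads were recovered from the scaling, and the shallower libraries measure low genes less precisely.

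Genes that averaged 10 or more scaled counts over the 6 libraries compared were fitted as log2(scaled count + 1) with limma 3.58.1 (R 4.3.3, Python 3.11.15), with a variance trend, 3 group means over all 9 libraries and Benjamini-Hochberg adjustment at 0.05. Named genes were the 20 largest falls and 15 largest rises that were called, the 4 genes of smallest p in each list, up to 12 called genes of each direction outside the lists, genes of the lists and genes the study names. Genes, lists and tests were chosen with earlier results of these data known. RefSeq windows of GRCm38.p6 gave promoters, matched by symbol, and the gene order. The script was tested on simulated data. Alternatives were the pseudocount, filter, scaling, variance moderation, samples, replicate block, threshold and each library left out. Some genes of the lists are not reported here by name.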

Additional observations from a re-analysis of the deposited data

How the results depend on the processing

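No called gene reversed its direction. With groups that do not overlap, this was fixed in advance for every alternative except the rescaling of libraries. Of 11965 values of 574 genes (those called or in the lists) under the alternatives, 11148 kept their side of the threshold, 745 lost it and 72 gained it. Of the 204 called genes, 74 lower and 7 higher ones were called under every alternative that tests them. Against 177 lower, 27 higher and 65 lower interferon-stimulated genes, limma without the variance trend called 94, 11 and 34. In that fit 103 of the 204 genes lost their call, among them Oas2, Oas3, Ifit1, Eif2ak2, Isg15, Usp18, Ddx58, Stat2, Irf9, Cxcl9, Lgals3bp, Agrn, Tap1, Ces1g, Plb1, Nt5e and Ccl5. Robust moderation ended 30 calls, among them Oas2, Isg15, Usp18, Dhx58 and Nt5e, and the 6 libraries alone ended 28, among them Irf9, Plac8 and Rsad2. An adjusted p under 0.01 gave 94, 10 and 42, an adjusted p under 0.1 gave 52 higher genes, and an absolute log2 change of at least 1 gave 117 lower and 10 higher. Leaving out single libraries gave 81 to 189 lower, 10 to 36 higher and 34 to 69 interferon-stimulated lower genes, with a median log2 change of that list from -1.68 to -1.34. The motif with C as the first free base was in 16.8% of lower genes with a window, against 39.2%. The causes were not tested. With the replicate number as a block, 235 genes were lower and 49 higher. Same-numbered blockade and 3pRNA libraries correlated at 0.068, 0.34 and 0.30 in their deviations from the group means, and 2 of 3 blockade libraries matched their own number best, so the numbers are not shown to pair the mice. An alternative chosen after seeing the data, without TBI replicates 1 and 3, which are low in muscle genes, gave 167 lower and 29 higher. Depth limits the lowest genes, and 3 mice per group limit small changes.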
